A study of Homo sapiens with 12 samples.

Results

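A set of 39 genes of DNA repair was followed across shNRF2 and shNC cells given GNA or DMSO. The genes were taken by symbol from the 61510 genes of the deposited count and FPKM tables, because they belong to the Fanconi, homologous recombination, nucleotide excision, mismatch and translesion pathways that act on cisplatin damage. All 39 symbols were found and all passed the low-count filter, which kept 15653 genes. They were sorted by role into 9 groups. The cells were A549/DDP, cisplatin-resistant cells derived from A549, an established human line of lung adenocarcinoma, and all of them were kept in medium with 1 µg/ml DDP (cisplatin). The labels do not say whether cisplatin stayed in the medium during the treatment. One line carried a hairpin labelled shNRF2, directed at the transcription factor NRF2, and the other the control hairpin shNC. At 70% confluence each line received 4 µM GNA (gambogenic acid, a compound of gamboge resin) or DMSO, its solvent, for 24 h. The 4 groups were shNRF2 GNA, shNRF2 DMSO, shNC GNA and shNC DMSO, with 3 libraries each. The labels name 1 line per hairpin and do not say whether it is a clone or a pool, so the hairpin and any other difference between the lines cannot be told apart. Nor do they say that libraries within a group are separate cultures, so the p-values reflect only how much the sequenced libraries vary, which may be technical variation.

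Cisplatin joins bases within a strand and, less often, across the strands. Adducts within a strand are cut out by nucleotide excision repair, in which XPA and RPA check the lesion, TFIIH with the helicases XPB and XPD opens the helix, and the nucleases XPG and ERCC1-XPF cut on either side. A crosslink between strands stalls the replication fork. There the Fanconi core complex adds ubiquitin to FANCD2 and FANCI, nucleases held by SLX4 unhook the crosslink, translesion polymerases copy past it, and homologous recombination with BRCA1, BRCA2 and their partners restores the broken strand. Many genes of the crosslink and recombination steps are transcribed mainly in cells that replicate their DNA, while the excision genes are used throughout the cell cycle.

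Library totals ran from 12848607 to 17192671 counts. Library shNC DMSO 1 stood apart from the other two shNC DMSO libraries: chi-square values of their counts, divided by the degrees of freedom, were 7.68 and 6.05, against 3.63 for the other two, and 2.25 to 5.13 for pairs in the other groups. The hairpin's target was lower in the shNRF2 line: NFE2L2, which encodes NRF2, had 46.2, 47.5 and 43.6 CPM in shNRF2 GNA, against 89.0, 83.0 and 90.2 CPM in shNC GNA (-0.93 ± 0.064 on the log2 scale, edgeR adjusted p = 9.0e-12), and 47.9, 49.4 and 53.3 CPM in shNRF2 DMSO, against 81.6, 77.8 and 74.4 CPM in shNC DMSO (-0.64 ± 0.064, edgeR adjusted p = 1.2e-08). HMOX1, which encodes the heme-degrading enzyme HO-1, rose with GNA by 3.00 ± 0.084 in shNRF2 and by 1.81 ± 0.073 in shNC on the log2 scale. The epithelial keratin KRT8 averaged 7609 ± 211 CPM in shNRF2 GNA and 12836 ± 421 CPM in shNC DMSO, groups that differ in both line and treatment. KRT19 had at most 2 counts in a library. Of 5 lung epithelial markers tested, 2 fell and 2 rose with GNA in shNC, and 2 fell and 0 rose in shNRF2. Summed FPKM of 5 alveolar type 2 markers lay between 0.0479 and 0.187 and of 4 endothelial markers between 0.00616 and 0.0858 in any library. That of 5 leukocyte markers lay between 0.141 and 0.444 and of 6 fibroblast markers between 1.11 and 1.85.

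With GNA, FANCD2, FANCI and the 3 RPA genes fell in both lines, as did some of the Fanconi core and recombination genes. Most of the 8 excision genes among the 39 had no call. Of the 20 other excision genes tested, most also had no call in shNRF2, where 4 fell, 3 rose and 13 were not called. In shNC most were called, as 9 fell and 5 rose. In shNRF2, 19 of the 39 genes fell and 2 rose, against 17.0% and 16.7% of all tested genes. In shNC, 19 fell and 2 rose too, against 16.1% and 14.6% of all tested genes. A call is a Benjamini-Hochberg adjusted p under 0.05 over all 15653 genes in edgeR's quasi-likelihood test, and a change is a log2 fold change ± SE of GNA over DMSO unless stated. The median change was -0.30 in shNRF2 and -0.31 in shNC, against 0.0098 and 0.017 over all tested genes. In bulk RNA, fewer cells in a state that expresses a gene and less RNA per cell cannot be told apart.

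The genes that fell in both lines were 16, against 10.5% of all tested genes: FANCA, FANCG, FANCM, FANCD2, FANCI, BRCA1, BRCA2, BRIP1, XRCC2, BLM, EXO1, RPA1, RPA2, RPA3, MSH6 and POLQ. With limma on log2(FPKM + 1) or log2(FPKM + 0.1) in place of edgeR, the shNC calls of FANCA, FANCM, FANCD2 and RPA3 were lost. The only one of the 39 that rose in both was MUS81, against 8.42% of all tested genes. Scaling to plain library totals in place of TMM moved the median of all genes up by 0.10 in shNC; the split then became 4 higher and 18 lower in shNRF2 and 8 higher and 17 lower in shNC.

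**Figure D1:**
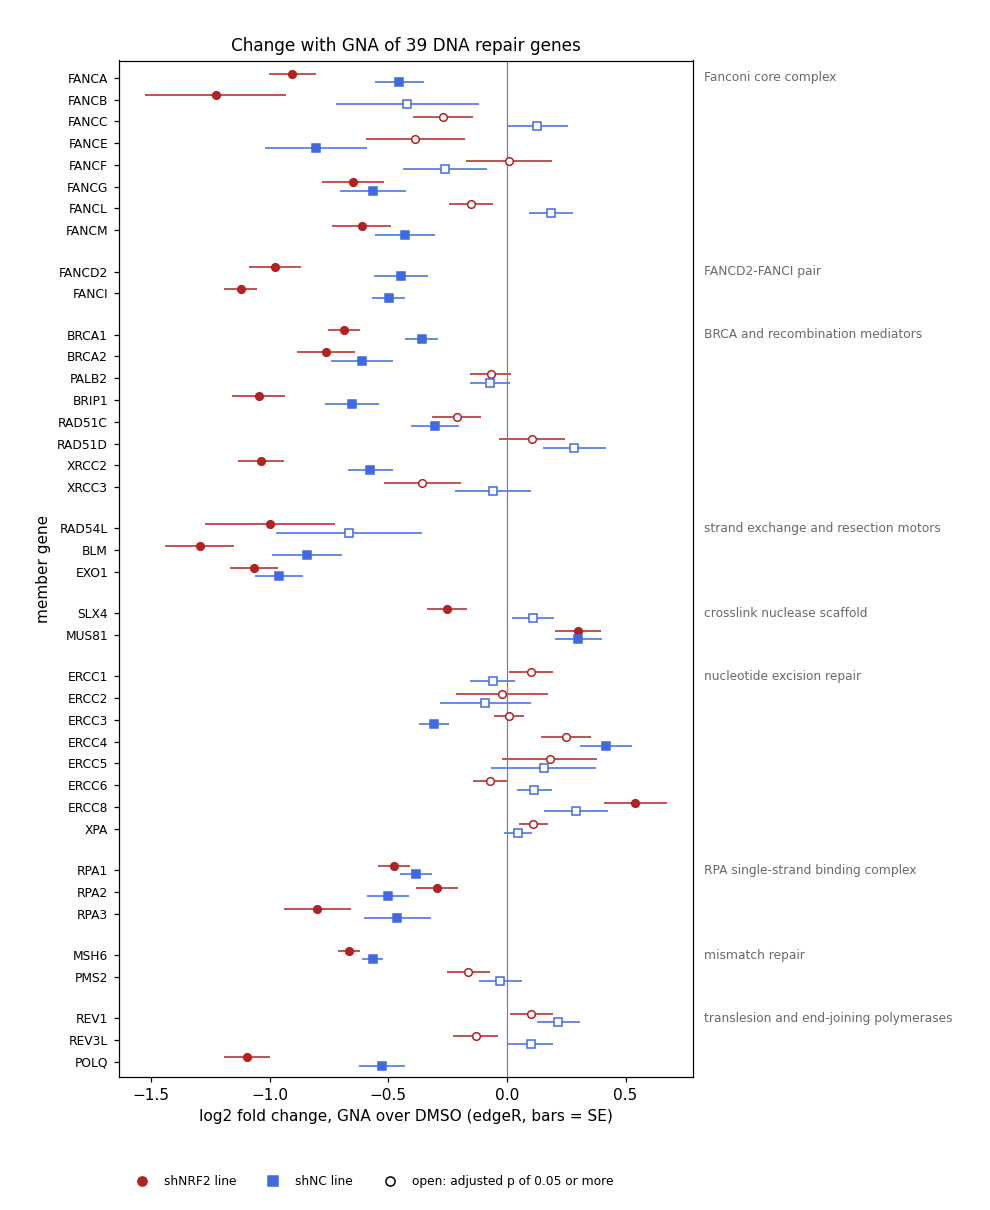
Log2 fold change of GNA over DMSO for each of the 39 genes, in shNRF2 (red circles) and shNC (blue squares), with SE as bars, filled where the edgeR adjusted p was under 0.05 and grouped by role. Filled points lie left of 0 in the Fanconi, recombination and RPA groups, those of MUS81 lie right of 0, and most points of the nucleotide excision group are open and near 0.

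Genes of replication and mitosis moved in the same direction. Of 32 S phase genes, 31 fell in shNRF2 (median -1.01) and 30 in shNC (median -0.81), against 17.0% and 16.1% of all tested genes. All 23 measured mitosis genes fell in both lines, with medians of -1.36 and -0.96. The summed FPKM of the S phase list was 248 to 256 in shNRF2 GNA and 445 to 458 in shNRF2 DMSO, and 253 to 254 in shNC GNA and 395 to 408 in shNC DMSO. That of the mitosis list was 218 to 222 in shNRF2 GNA and 514 to 539 in shNRF2 DMSO, and 238 to 242 in shNC GNA and 420 to 425 in shNC DMSO. The part of the cell cycle in the changes of the repair genes was not tested.

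The Fanconi core complex is the ubiquitin ligase that marks a stalled fork, with FANCL as its catalytic subunit. Of its 8 genes, 4 fell in each line, against 17.0% of all tested genes in shNRF2 and 16.1% in shNC. FANCA, a scaffold subunit of the complex, had 17.6, 17.5 and 18.5 CPM in shNRF2 GNA, against 33.6, 35.5 and 31.4 CPM in shNRF2 DMSO (-0.90 ± 0.098, edgeR adjusted p = 2.9e-08). With shNC the values were 14.5, 14.9 and 15.3 CPM with GNA, against 23.9, 20.1 and 17.3 CPM with DMSO (-0.45 ± 0.10, edgeR adjusted p = 0.0012). The GNA libraries of each line lay below all of its DMSO libraries. FANCA shares 23.6% of its annotated exon bases with ZNF276 on the opposite strand, and whether counting used strand is not given in the sources used here.

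FANCG, which joins FANCA in the complex, had 9.35, 9.37 and 8.50 CPM in shNRF2 GNA, against 14.8, 14.7 and 13.1 CPM in shNRF2 DMSO (-0.65 ± 0.13). The shNC line had 6.33, 6.54 and 7.61 CPM with GNA, against 10.1, 8.53 and 11.8 CPM with DMSO (-0.56 ± 0.14). FANCM, the translocase that brings the complex to the fork, changed by -0.61 ± 0.12 in shNRF2 and -0.43 ± 0.13 in shNC, and the shNC call was lost on leaving out shNC GNA 3 (adjusted p = 0.061). The other core subunits passed in 1 line or none. FANCB, present at 0.754 to 3.22 CPM, fell in shNRF2 to 0.754, 1.58 and 1.11 CPM with GNA, against 2.76, 2.22 and 3.22 CPM with DMSO (-1.23 ± 0.30), while its change in shNC was -0.42 ± 0.30 (edgeR adjusted p = 0.32). FANCE, which binds FANCD2, fell in shNC to 2.09, 2.28 and 3.01 CPM with GNA, against 5.24, 3.44 and 4.36 CPM with DMSO (-0.81 ± 0.22), and its change in shNRF2 was -0.39 ± 0.21 (adjusted p = 0.17 in edgeR). The differences between the lines in FANCB and FANCE did not pass the test (edgeR adjusted p = 0.3 and 0.49). FANCC, FANCF and the ligase subunit FANCL passed in neither line, with changes of -0.27, 0.0094 and -0.15 in shNRF2 and 0.13, -0.26 and 0.19 in shNC. FANCC passed as lower in shNRF2 on leaving out shNRF2 GNA 1 (edgeR adjusted p = 0.036). FANCL passed as higher in shNC under library totals (edgeR adjusted p = 0.02). FANCF had 1.90 ± 0.441 FPKM in shNRF2 GNA, 1.81 ± 0.234 in shNRF2 DMSO, 1.70 ± 0.274 in shNC GNA and 1.88 ± 0.135 in shNC DMSO (SD, n = 3). By the lengths behind the deposited FPKM values, its mean per length was the highest of the core genes in each group but shNRF2 DMSO. There FANCA had 2.69 ± 0.176 and FANCG 2.53 ± 0.176 FPKM. For FANCL the length used was 37977 bases, against 2412 in its merged annotated exons, and for FANCF 3291 against 2952. FANCL had a higher mean CPM than FANCF in every group (18.9 against 6.51 in shNC DMSO). The rank of FANCF among the core genes therefore depends on the lengths used.

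FANCD2 and FANCI form the clamp that the core complex ubiquitinates, and both fell further in shNRF2 than in shNC. FANCI, on chromosome 15 at 89243949 to 89317261 (GRCh38, plus strand, GENCODE 29), had 44.6, 46.4 and 42.8 CPM in shNRF2 GNA, against 103, 95.8 and 92.1 CPM in shNRF2 DMSO. That is a level of 45.9% of the DMSO level (-1.12 ± 0.070, edgeR adjusted p = 5.9e-13). Its shNC values were 49.5, 41.1 and 49.2 CPM with GNA, against 67.3, 65.6 and 64.4 CPM with DMSO, or 70.8% (-0.50 ± 0.070, edgeR adjusted p = 3.5e-06). The GNA libraries of both lines lay in 1 range, and the lines stood apart in DMSO, where shNRF2 was higher.

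FANCD2, on chromosome 3 at 10026414 to 10101930 (plus strand), had 13.0, 14.4 and 11.5 CPM in shNRF2 GNA, against 23.0, 24.8 and 29.1 CPM in shNRF2 DMSO (-0.98 ± 0.11). The control line shNC had 11.9, 11.3 and 11.4 CPM with GNA, against 15.8, 17.3 and 14.0 CPM with DMSO (-0.45 ± 0.12). No GNA library of a line overlapped its DMSO libraries. The response in shNRF2 minus that in shNC was -0.63 ± 0.099 for FANCI (edgeR adjusted p = 1.6e-04) and -0.53 ± 0.16 for FANCD2 (edgeR adjusted p = 0.042). The FANCI difference passed under every alternative and every omission of a library. The FANCD2 difference was lost on leaving out any 1 of shNRF2 GNA 1 and 3, shNRF2 DMSO 2 and 3, shNC GNA 1, 2 and 3 and shNC DMSO 3 (adjusted p between 0.066 and 0.13), and when the replicate block was added (edgeR adjusted p = 0.051).

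**Figure D2:**
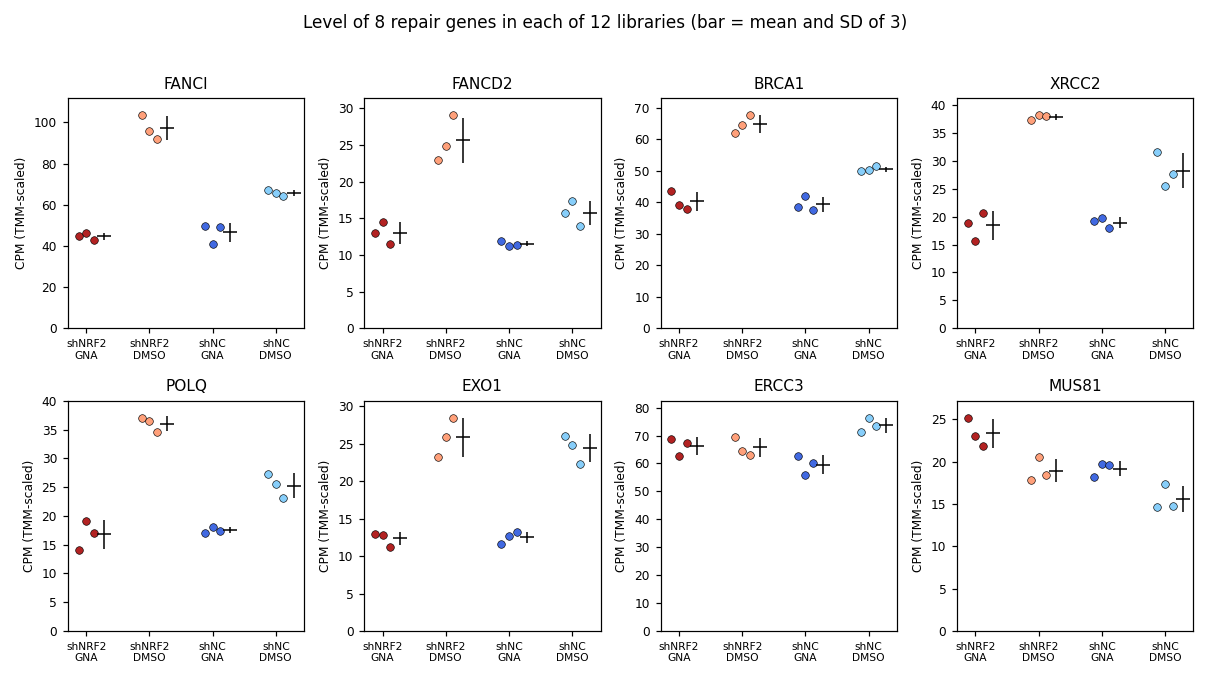
Level of 8 of the repair genes in CPM on TMM-scaled totals, 1 point per library, in shNRF2 GNA, shNRF2 DMSO, shNC GNA and shNC DMSO, with mean and SD of 3 libraries as bars. FANCI, FANCD2, BRCA1, XRCC2 and POLQ are highest in shNRF2 DMSO and alike in the GNA groups, EXO1 is alike in the DMSO groups of both lines, ERCC3 is lowest in shNC GNA, and MUS81 is highest in shNRF2 GNA.

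Recombination needs BRCA1 to start end resection, BRCA2, bridged to it by PALB2, to form the filament that searches for a matching strand, and the paralogs RAD51C, RAD51D, XRCC2 and XRCC3 to steady that filament. Of these genes together with the BRCA1-bound helicase gene BRIP1, 4 of 8 fell in shNRF2 and 5 of 8 in shNC. The shares of all tested genes that fell were 17.0% and 16.1%. BRCA1 had 43.6, 39.2 and 38.0 CPM in shNRF2 GNA, against 62.0, 64.5 and 67.6 CPM in shNRF2 DMSO (-0.69 ± 0.069, edgeR adjusted p = 7.8e-09). In shNC it had 38.4, 42.1 and 37.4 CPM with GNA, against 49.8, 50.2 and 51.3 CPM with DMSO (-0.36 ± 0.069, edgeR adjusted p = 2.3e-04). All GNA libraries were below all DMSO libraries, across the lines as well. BRCA2 had 8.75, 12.8 and 10.9 CPM in shNRF2 GNA, against 18.0, 18.8 and 18.6 CPM in shNRF2 DMSO (-0.76 ± 0.12). With shNC the values were 7.27, 7.90 and 9.45 CPM with GNA, against 12.2, 12.3 and 13.2 CPM with DMSO (-0.61 ± 0.13).

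BRIP1, also known as FANCJ, had 11.2, 12.8 and 9.42 CPM in shNRF2 GNA, against 22.7, 22.9 and 23.5 CPM in shNRF2 DMSO (-1.05 ± 0.11). The shNC line had 9.79, 9.31 and 10.8 CPM with GNA, against 16.1, 14.4 and 16.7 CPM with DMSO (-0.65 ± 0.11). XRCC2 was the only 1 of the 4 paralogs named above that fell in both lines. It had 18.9, 15.6 and 20.7 CPM in shNRF2 GNA, against 37.3, 38.1 and 38.0 CPM in shNRF2 DMSO (-1.04 ± 0.096, edgeR adjusted p = 1.7e-09). Its shNC values were 19.1, 19.7 and 17.9 CPM with GNA, against 31.6, 25.5 and 27.6 CPM with DMSO (-0.58 ± 0.097, edgeR adjusted p = 3.9e-05). RAD51C changed by -0.21 ± 0.10 in shNRF2 (edgeR adjusted p = 0.12) and fell by 0.30 in shNC, a call lost on leaving out any 1 of shNC GNA 2 and 3 and shNC DMSO 2 and 3 (adjusted p between 0.078 and 0.11). Its shNC call was also lost under library totals and both limma fits. RAD51D changed by 0.11 and 0.28 and XRCC3 by -0.36 and -0.058 in shNRF2 and shNC, none of which passed. XRCC3 shares 76.7% of its exon bases with KLC1 on the opposite strand. PALB2 stood at 25.3, 22.0 and 21.9 CPM in shNRF2 GNA, against 24.4, 23.7 and 24.3 CPM in shNRF2 DMSO, and at 23.8, 23.5 and 23.4 CPM in shNC GNA, against 23.7, 26.8 and 23.8 CPM in shNC DMSO. Its change with GNA had a 95% interval of -0.24 to 0.11 in shNRF2 and -0.25 to 0.10 in shNC.

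BLM had the largest fall of the 39 genes in shNRF2, and EXO1, followed by BLM, the largest in shNC. BLM, the helicase that dissolves recombination intermediates, had 8.60, 6.46 and 5.48 CPM in shNRF2 GNA, against 18.3, 15.9 and 15.6 CPM in shNRF2 DMSO (-1.29 ± 0.15, edgeR adjusted p = 6.0e-08). The control line shNC had 6.84, 6.91 and 6.14 CPM with GNA, against 10.3, 13.6 and 11.7 CPM with DMSO (-0.84 ± 0.15, edgeR adjusted p = 7.4e-05). The nuclease gene EXO1 had 12.9, 12.9 and 11.3 CPM in shNRF2 GNA, against 23.3, 25.9 and 28.4 CPM in shNRF2 DMSO (-1.07 ± 0.10). In shNC it had 11.7, 12.7 and 13.1 CPM with GNA, against 26.0, 24.8 and 22.3 CPM with DMSO (-0.96 ± 0.10). The EXO1 levels were alike in the lines under both treatments, and the difference of its responses was -0.10 with a 95% interval of -0.40 to 0.19. RAD54L, a translocase of the strand exchange step, was low in all groups, with 1.51, 2.34 and 1.29 CPM in shNRF2 GNA, against 3.79, 2.83 and 3.68 CPM in shNRF2 DMSO (-0.998 ± 0.27, edgeR adjusted p = 0.0055). With shNC the values were 1.15, 1.60 and 0.859 CPM with GNA, against 2.21, 1.72 and 1.85 CPM with DMSO, and the change of -0.67 ± 0.31 did not pass (edgeR adjusted p = 0.1). The difference of the RAD54L responses between the lines did not pass either.

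Of the genes of crosslink unhooking, MUS81 rose in both lines and SLX4 fell in shNRF2. MUS81, a nuclease that cuts stalled forks, had 25.2, 23.0 and 21.8 CPM in shNRF2 GNA, against 17.9, 20.5 and 18.5 CPM in shNRF2 DMSO (0.30 ± 0.096, edgeR adjusted p = 0.017). The shNC line had 18.1, 19.7 and 19.6 CPM with GNA, against 14.6, 17.4 and 14.7 CPM with DMSO (0.30 ± 0.098, edgeR adjusted p = 0.021). The groups of each line did not overlap, but the calls rested on single libraries: that in shNRF2 was lost on leaving out any 1 of shNRF2 GNA 1 and shNRF2 DMSO 1 and 3 (adjusted p between 0.054 and 0.092) and that in shNC on leaving out any 1 of shNC GNA 2 and 3 and shNC DMSO 1 and 3 (adjusted p between 0.068 and 0.091). SLX4, the scaffold that holds MUS81 and ERCC1-XPF, had 35.2, 35.7 and 31.0 CPM in shNRF2 GNA, against 41.1, 39.9 and 40.2 CPM in shNRF2 DMSO (-0.25 ± 0.084, edgeR adjusted p = 0.021). Its shNC values were 22.9, 29.1 and 28.4 CPM with GNA, against 24.4, 24.2 and 26.1 CPM with DMSO, and those groups overlapped (0.11 ± 0.088, edgeR adjusted p = 0.38). The difference of its responses between the lines was -0.36 and did not pass (edgeR adjusted p = 0.074). The shNRF2 call was lost on leaving out any 1 of shNRF2 GNA 3 and shNRF2 DMSO 1 (adjusted p between 0.066 and 0.14) and under library totals (edgeR adjusted p = 0.081).

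Of the 8 nucleotide excision genes, 1 rose in shNRF2 with no fall, and 1 rose and 1 fell in shNC, shares near those of all tested genes. ERCC3, which encodes the TFIIH helicase XPB, had 68.6, 62.6 and 67.4 CPM in shNRF2 GNA, against 69.6, 64.5 and 63.2 CPM in shNRF2 DMSO (0.0083 ± 0.064, edgeR adjusted p = 0.94). The control line shNC had 62.6, 55.8 and 60.3 CPM with GNA, against 71.1, 76.4 and 73.3 CPM with DMSO (-0.31 ± 0.063, edgeR adjusted p = 4.6e-04). Among these 8 genes only ERCC3 fell, and its groups overlapped in shNRF2 and not in shNC. ERCC4, which encodes XPF, had 15.8, 14.0 and 14.2 CPM in shNRF2 GNA, against 12.5, 12.4 and 12.0 CPM in shNRF2 DMSO (0.25 ± 0.11, edgeR adjusted p = 0.075). It passed there under library totals (adjusted p = 0.024 in edgeR), upper-quartile factors and limma on log2(FPKM + 1). In shNC it had 11.9, 12.5 and 13.4 CPM with GNA, against 9.44, 9.75 and 9.17 CPM with DMSO (0.42 ± 0.11, edgeR adjusted p = 0.0043). ERCC8, which encodes CSA of transcription-coupled repair, had 17.4, 17.1 and 23.3 CPM in shNRF2 GNA, against 11.8, 14.2 and 14.0 CPM in shNRF2 DMSO (0.54 ± 0.13, edgeR adjusted p = 0.0021). In shNC its change was 0.29 ± 0.14 (edgeR adjusted p = 0.11), and it passed there on leaving out shNC DMSO 1 (adjusted p = 0.035) and under library totals. The differences of the responses between the lines did not pass for ERCC4 or ERCC8. ERCC4 shares 25.7% of its exon bases with an antisense RNA and ERCC8 28.3% with a pseudogene on the same strand.

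The damage-checking gene XPA had the highest level per length of all 39 genes. It stood at 74.7 ± 3.31 FPKM in shNRF2 GNA and 66.2 ± 3.21 FPKM in shNRF2 DMSO, and at 78.1 ± 1.92 FPKM in shNC GNA and 70.4 ± 5.62 FPKM in shNC DMSO (SD, n = 3). Per TMM-scaled library it had 129.7, 138 and 126 CPM in shNRF2 GNA, against 119, 117 and 129 CPM in shNRF2 DMSO, and 142, 139 and 135 CPM in shNC GNA, against 123, 146 and 134 CPM in shNC DMSO. The groups overlapped, and the 95% interval of its change was -0.012 to 0.24 in shNRF2 and -0.076 to 0.17 in shNC. XPA passed in both lines as a rise under library totals, and in shNRF2 also with both limma fits. ERCC1, the partner of XPF, changed by 0.10 in shNRF2 and -0.061 in shNC. ERCC2, which encodes the helicase XPD, changed by -0.020 and -0.091, and ERCC5, which encodes the nuclease XPG, by 0.18 and 0.15. ERCC6, which encodes CSB of transcription-coupled repair, changed by -0.070 and 0.11. None of these 4 passed in either line on TMM-scaled counts, and ERCC6 passed in shNC under library totals (edgeR adjusted p = 0.023).

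RPA coats single-stranded DNA in replication, recombination and excision repair, and its 3 subunit genes fell in both lines. RPA1 had 33.2, 33.5 and 31.5 CPM in shNRF2 GNA, against 47.4, 44.5 and 44.5 CPM in shNRF2 DMSO (-0.48 ± 0.068). With shNC the values were 32.9, 34.2 and 34.4 CPM with GNA, against 42.9, 44.8 and 44.7 CPM with DMSO (-0.38 ± 0.067), with no overlap in either line. RPA2 had 23.0, 20.9 and 22.3 CPM in shNRF2 GNA, against 24.3, 29.8 and 27.3 CPM in shNRF2 DMSO (-0.30 ± 0.089), a call lost on leaving out any 1 of shNRF2 GNA 2 and shNRF2 DMSO 2 (adjusted p between 0.06 and 0.085). The shNC line had 23.2, 20.4 and 22.2 CPM with GNA, against 28.8, 32.1 and 32.1 CPM with DMSO (-0.50 ± 0.088). RPA3 had 11.2, 11.9 and 12.6 CPM in shNRF2 GNA, against 17.7, 19.8 and 25.0 CPM in shNRF2 DMSO (-0.80 ± 0.14). Its shNC values were 14.8, 11.7 and 12.2 CPM with GNA, against 14.2, 21.9 and 16.8 CPM with DMSO (-0.46 ± 0.14). The shNC groups of RPA3 overlapped, and the call was lost on leaving out any 1 of shNC GNA 2 and 3 and shNC DMSO 2 (adjusted p between 0.054 and 0.17) and under library totals (edgeR adjusted p = 0.05).

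MSH6, a subunit of the complex that recognises mismatches, fell by a similar amount in both lines. It had 183, 184 and 186 CPM in shNRF2 GNA, against 284, 295 and 298 CPM in shNRF2 DMSO (-0.67 ± 0.045, edgeR adjusted p = 3.2e-12). The control line shNC had 176, 178 and 183 CPM with GNA, against 268, 264 and 263 CPM with DMSO (-0.57 ± 0.045, edgeR adjusted p = 1.7e-10). Its changes had the smallest SE of the 39 genes, and the difference of the responses was -0.099 with a 95% interval of -0.23 to 0.031. PMS2, the mismatch endonuclease subunit, changed by -0.16 ± 0.090 in shNRF2 and -0.028 ± 0.090 in shNC, and neither passed. PMS2 has near-identical pseudogene copies whose reads the counting could split.

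The 3 polymerase genes differed. POLQ, the polymerase of microhomology-mediated end joining, had 14.1, 19.2 and 17.1 CPM in shNRF2 GNA, against 37.1, 36.5 and 34.6 CPM in shNRF2 DMSO (-1.10 ± 0.096, edgeR adjusted p = 6.2e-10). In shNC it had 17.1, 18.1 and 17.4 CPM with GNA, against 27.2, 25.6 and 23.0 CPM with DMSO (-0.53 ± 0.097, edgeR adjusted p = 1.2e-04). Its GNA libraries lay below every DMSO library of either line. REV1, the scaffold of translesion synthesis, had 23.0, 20.0 and 24.3 CPM in shNRF2 GNA, against 21.6, 19.5 and 21.4 CPM in shNRF2 DMSO, and 21.1, 20.9 and 20.6 CPM in shNC GNA, against 19.0, 17.5 and 17.3 CPM in shNC DMSO. Its changes of 0.10 ± 0.091 and 0.22 ± 0.092 did not pass (edgeR adjusted p = 0.42 and 0.077), though the shNC groups did not overlap. REV1 passed in shNC under library totals (edgeR adjusted p = 0.0096), upper-quartile factors and both limma fits. REV3L, the catalytic subunit of polymerase zeta, changed by -0.13 in shNRF2 and 0.099 in shNC, and neither passed.

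The other genes of these pathways were counted from lists kept apart from the 39. Over all tested genes, 17.0% fell and 16.7% rose in shNRF2, and 16.1% fell and 14.6% rose in shNC. Of 14 other Fanconi genes tested, 8 fell and 1 rose in shNRF2 and 4 fell and 2 rose in shNC. UBE2T, the ubiquitin-conjugating enzyme for FANCD2, changed by -0.81 ± 0.13 in shNRF2 and -0.67 ± 0.13 in shNC, while the crosslink nuclease gene FAN1 rose by 0.43 ± 0.071 and 0.37 ± 0.072. Of 30 other recombination genes, 13 fell and 1 rose in shNRF2 and 10 fell and 3 rose in shNC. RAD51AP1, which promotes strand pairing, changed by -1.14 ± 0.13 and -0.66 ± 0.13 in shNRF2 and shNC.

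Of 20 other excision genes, 4 fell and 3 rose in shNRF2, near the shares of all tested genes (17.0% and 16.7%). In shNC 9 fell and 5 rose, against 16.1% and 14.6% of all tested genes. LIG1, the ligase that seals the patch, fell by 0.72 in shNRF2, and RAD23B, which stabilises the damage sensor XPC, rose by 0.47 in shNC. Among 12 other translesion genes, 5 fell and 1 rose in shNRF2 and 4 fell in shNC, led by the PCNA-binding factor gene PCLAF (-1.57 ± 0.17 and -1.02 ± 0.16). RAD18, the ligase that ubiquitinates PCNA, changed by -0.66 ± 0.091 and -0.50 ± 0.090.

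The remaining repair lists cover end joining, base excision and damage signalling. Their counts stand against 17.0% lower and 16.7% higher of all tested genes in shNRF2, and 16.1% and 14.6% in shNC. Of 16 end-joining genes, 5 fell and 1 rose in shNRF2 and 4 fell and 1 rose in shNC, with XRCC5, the Ku80 gene, at -0.52 ± 0.046 and -0.43 ± 0.046. Of 23 base excision genes, 8 fell and 3 rose in shNRF2 and 7 fell and 3 rose in shNC. Of 20 damage signalling genes, 13 fell and 1 rose in shNRF2, and 8 fell in shNC. CLSPN, the adaptor through which ATR activates CHK1, changed by -1.24 ± 0.059 in shNRF2 and -0.95 ± 0.058 in shNC. No difference between these lists was tested.

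**Figure D3:**
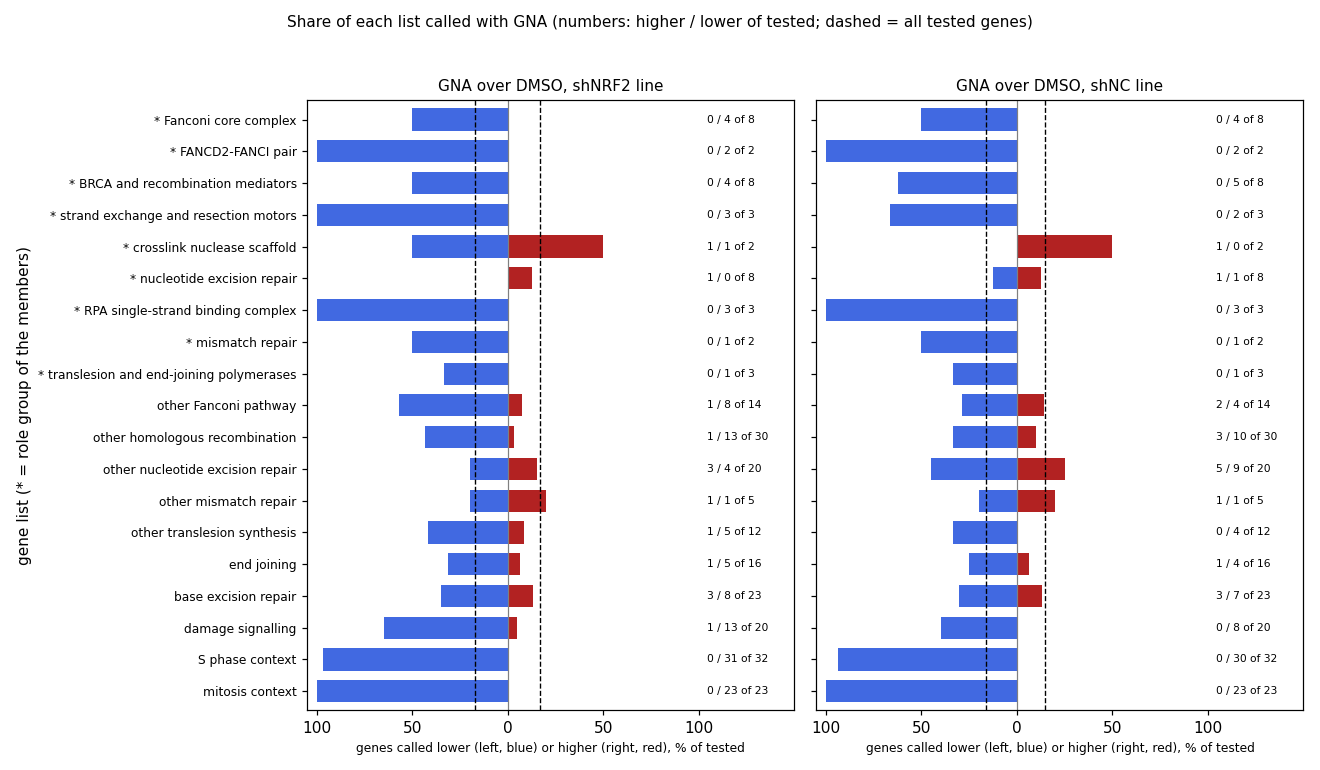
Percent of tested genes called lower (blue, left of 0) or higher (red, right of 0) with GNA in each list, for shNRF2 (left panel) and shNC (right panel), with the counts beside the bars and the percent of all tested genes as dashed lines. All 3 RPA genes, both genes of the FANCD2-FANCI pair and all 23 mitosis genes are called lower in both lines, against 1 or no gene of the 8 in the nucleotide excision group. In the list of other excision genes, 9 of 20 are called lower in shNC and 4 in shNRF2.

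Sequence before the RefSeq start of genes that fell in both lines is shown because they moved together. Of the 39 genes, 36 had an entry among RefSeq promoter windows (GRCh38.p14), with 50 windows between them, and 35116 windows of all genes served for comparison. In the 250 bases before the start site, either strand was searched for E2F motifs (TTCCCGC or TTGGCGC or TTCGCGC), NF-Y motifs (CCAAT), the cell cycle homology region (TTTGAA or TTCGAA) and a short form of the antioxidant response element (TGACNNNGC). The E2F motif was in 32% of the windows of the 39 genes, against 9.32% of all windows. It was in 38.9% of the 18 windows of genes that fell in both lines, against 28.1% of the 32 windows of the others. Some genes have more than 1 window, so the windows are not independent. MSH6 alone supplied 4 of the 18 windows and 3 of the 7 with a match. Of the others, FANCC and RAD54L each supplied 2 windows, all with a match. The difference between these shares was not tested. NF-Y motifs were in 36% of the windows of the 39 genes, against 32% of all windows. The cell cycle homology region was in 10% against 14.3% and the antioxidant response element in 8% against 10.9%. These are matches of letters and not sites of binding. FANCI has no entry, and 237 of the 250 bases of the first EXO1 window lie in an annotated exon, so the windows of BLM (chr15:90717096-90717345, plus strand) and POLQ (chr3:121545989-121546238, minus strand) are printed 5′ to 3′ up to the base before the RefSeq start, with matches in capitals. The POLQ window lies within the gene as GENCODE 29 places it (chromosome 3, 121431427 to 121546641), with 18 of its 250 bases in an annotated exon of POLQ, so it is not upstream of that start. Of the BLM window, 19 bases lie in an annotated BLM exon.
BLM: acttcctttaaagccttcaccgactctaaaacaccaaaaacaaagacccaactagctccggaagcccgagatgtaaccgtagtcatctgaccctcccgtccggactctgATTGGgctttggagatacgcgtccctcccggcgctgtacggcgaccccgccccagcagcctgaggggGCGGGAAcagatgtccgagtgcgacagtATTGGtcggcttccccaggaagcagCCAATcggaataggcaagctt
POLQ: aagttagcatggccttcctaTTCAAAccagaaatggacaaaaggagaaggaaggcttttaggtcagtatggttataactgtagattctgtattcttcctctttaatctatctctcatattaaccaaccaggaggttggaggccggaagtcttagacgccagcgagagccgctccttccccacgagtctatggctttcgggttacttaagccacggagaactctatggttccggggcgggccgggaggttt
The BLM window holds 1 E2F match, with its first base 74 bases before the start, and 3 NF-Y matches, at 141, 46 and 21 bases before it. The POLQ window holds 1 match to the cell cycle homology region, on the other strand, 230 bases before the start, and no E2F or NF-Y match.

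In DMSO, 21 of the 39 genes were higher in shNRF2 than in shNC, 1 was lower and 17 were not called, against 16.8% higher and 18.3% lower of all tested genes, and the median difference was 0.27. In GNA, 7 were higher, against 12.8% of all tested genes. None was lower by edgeR, at an unadjusted p under 0.05 or by DESeq2, against 13.3% of all tested genes lower by edgeR, and the median difference was 0.043. The shNRF2 DMSO and shNC DMSO libraries also serve as the baselines of the GNA changes above, so these comparisons are not independent of them.

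**Figure D4:**
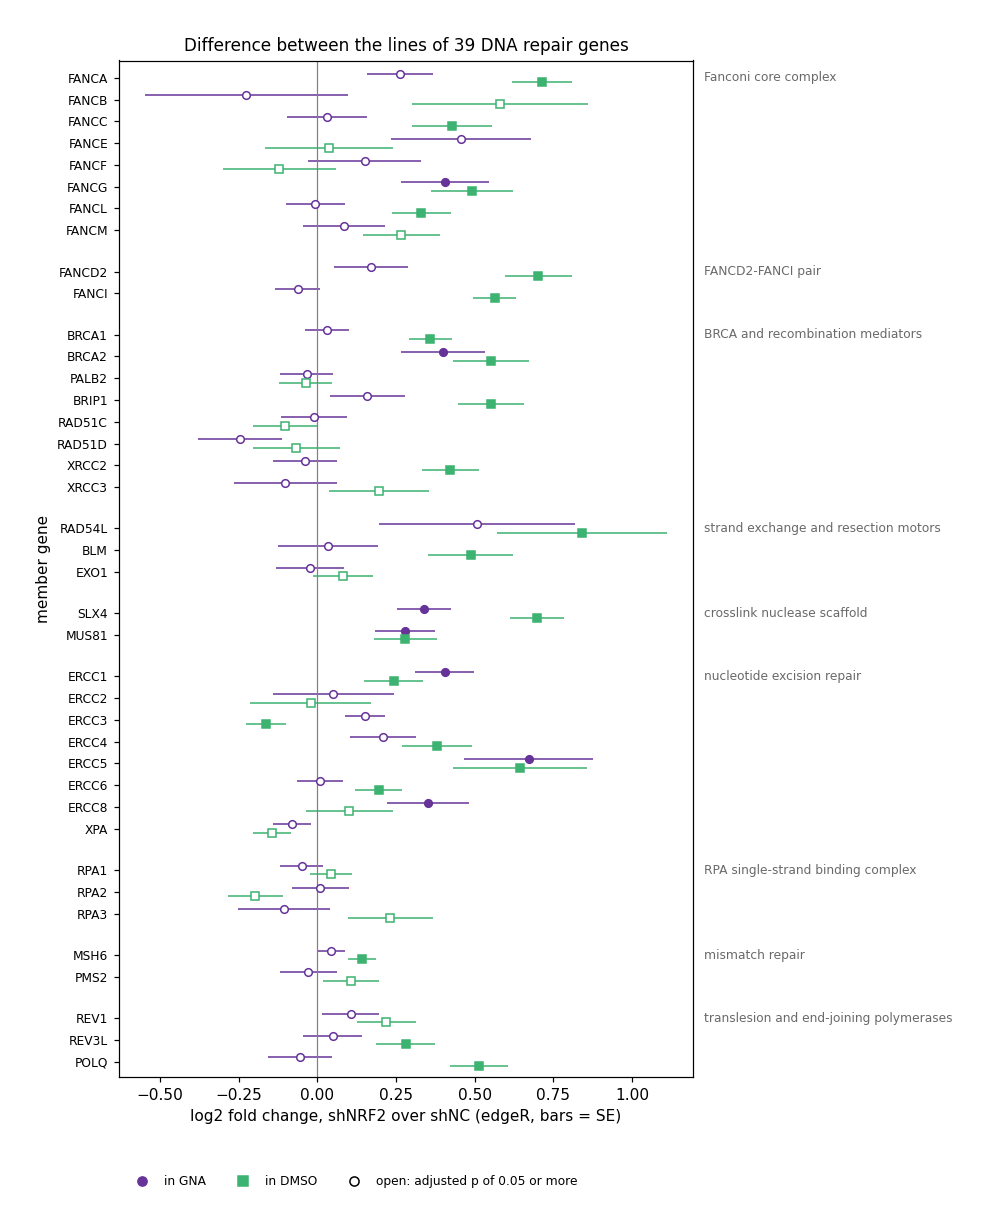
Log2 fold change of shNRF2 over shNC for each of the 39 genes, in GNA (purple circles) and DMSO (green squares), with SE as bars, filled where the edgeR adjusted p was under 0.05. Most filled squares lie right of 0, while the circles of FANCI, FANCD2, BRCA1, XRCC2 and POLQ are open and near 0.

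The genes higher in shNRF2 DMSO came from every role group but RPA. Of the 8 Fanconi core genes 4 were higher (FANCA, FANCC, FANCG and FANCL), against 16.8% of all tested genes. FANCA was higher by 0.71 ± 0.096, and FANCD2 and FANCI by 0.70 ± 0.11 and 0.56 ± 0.068. Of the mediators, BRCA1 was higher by 0.36 ± 0.068, BRCA2 by 0.55 ± 0.12, BRIP1 by 0.55 ± 0.11 and XRCC2 by 0.42 ± 0.092. RAD54L was higher by 0.84 ± 0.27, a call lost on leaving out any 1 of shNRF2 DMSO 1 and 3 and shNC DMSO 2 and 3 (adjusted p between 0.051 and 0.074), and BLM by 0.49 ± 0.14. POLQ was higher by 0.51 ± 0.092 and REV3L by 0.28 ± 0.095, the REV3L call being lost on leaving out any 1 of shNRF2 DMSO 1 and 3 and shNC DMSO 1 (adjusted p between 0.072 and 0.19). MSH6 was higher by 0.14 ± 0.044, a call lost on leaving out shNRF2 DMSO 2 (adjusted p = 0.054). EXO1, at 0.081 ± 0.095 (edgeR adjusted p = 0.55), and the 3 RPA genes, at 0.043, -0.20 and 0.23, did not pass. RPA2 passed as lower on leaving out either shNC DMSO 1 or shNRF2 DMSO 2 (edgeR adjusted p between 0.035 and 0.037). RPA3 passed as higher on leaving out shNC DMSO 2 (edgeR adjusted p = 0.021). Of the lists beside them, 13 of 32 S phase genes were higher and 2 lower in shNRF2 DMSO (median 0.14), and 11 of 23 mitosis genes were higher and 1 lower (median 0.22); their part in the difference was not tested.

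The genes higher in shNRF2 under both treatments were 6, against 7.66% of all tested genes: FANCG, BRCA2, SLX4, MUS81, ERCC1 and ERCC5. For SLX4 and ERCC1, every shNRF2 library lay above every shNC library. How many of all tested genes are separated in this way was not counted. SLX4, with the library values given above, was at 31.0 CPM or more in every shNRF2 library and 29.1 CPM or less in every shNC library (0.34 ± 0.086 in GNA, edgeR adjusted p = 0.004, and 0.70 ± 0.086 in DMSO, edgeR adjusted p = 3.5e-07). ERCC1 had 22.4, 23.3 and 23.5 CPM in shNRF2 GNA, against 16.8, 18.1 and 17.4 CPM in shNC GNA (0.41 ± 0.093, edgeR adjusted p = 0.0016). In DMSO it had 22.2, 21.4 and 20.8 CPM in shNRF2, against 15.6, 19.6 and 19.3 CPM in shNC (0.24 ± 0.094, edgeR adjusted p = 0.046). The DMSO call was lost on leaving out any 1 of shNRF2 GNA 1, 2 and 3, shNRF2 DMSO 1, 2 and 3, shNC GNA 2 and 3 and shNC DMSO 1 (adjusted p between 0.053 and 0.29). ERCC1 shares 28.6% of its exon bases with CD3EAP on the opposite strand.

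ERCC5 had 6.71, 5.83 and 5.29 CPM in shNRF2 GNA, against 3.17, 4.69 and 3.25 CPM in shNC GNA (0.67 ± 0.21), and 5.40, 3.90 and 6.36 CPM in shNRF2 DMSO, against 3.93, 2.76 and 3.37 CPM in shNC DMSO (0.64 ± 0.21). The calls were lost on leaving out any 1 of shNRF2 GNA 1 and shNC GNA 1 and 3 (adjusted p between 0.071 and 0.075) in GNA and on leaving out any 1 of shNRF2 DMSO 1 and 3 and shNC DMSO 2 (adjusted p between 0.059 and 0.12) in DMSO, and 63.2% of its exon bases are shared with the BIVM-ERCC5 readthrough gene on the same strand. For BRCA2 the GNA difference of 0.40 ± 0.13 was lost on leaving out any 1 of shNRF2 GNA 2 and 3 and shNC GNA 1 and 2 (adjusted p between 0.062 and 0.21), and for FANCG that of 0.41 ± 0.14 on leaving out any 1 of shNRF2 GNA 1 and 2 and shNC GNA 1 and 2 (adjusted p between 0.084 and 0.11). For MUS81 the differences of 0.28 ± 0.095 in GNA and 0.28 ± 0.10 in DMSO were lost on leaving out any 1 of shNRF2 GNA 1 and 2 and shNC GNA 1, 2 and 3 (adjusted p between 0.051 and 0.14) and on leaving out any 1 of shNRF2 DMSO 2 and shNC DMSO 1 and 3 (adjusted p between 0.11 and 0.15). The other gene called in GNA was ERCC8 at 0.35 ± 0.13, lost on leaving out any 1 of shNRF2 GNA 3, shNRF2 DMSO 2 and shNC GNA 1, 2 and 3 (adjusted p between 0.051 and 0.36). Without a single library the GNA count ran from 2 to 8, so most of these calls are marginal.

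The other excision genes among the 39 that were higher in shNRF2 were ERCC4, at 0.38 ± 0.11 in DMSO, and ERCC6, at 0.20 ± 0.074 in DMSO. The ERCC6 call was lost on leaving out any 1 of shNRF2 GNA 2, shNRF2 DMSO 1 and 3 and shNC DMSO 1, 2 and 3 (adjusted p between 0.052 and 0.16). The gene lower in shNRF2 DMSO was ERCC3 (-0.16 ± 0.063, edgeR adjusted p = 0.048), a call lost on leaving out any 1 of shNRF2 GNA 1 and 3, shNRF2 DMSO 2 and 3, shNC GNA 3 and shNC DMSO 2 and 3 (adjusted p between 0.053 and 0.16). XPA was at -0.14 in DMSO and -0.080 in GNA, and ERCC2 at -0.021 and 0.051, with no call. On leaving out either shNC DMSO 1 or shNRF2 DMSO 3, XPA passed as lower in DMSO (edgeR adjusted p between 0.0059 and 0.031). On TMM-scaled counts of all 12 libraries, 8 of the 39 genes passed in no comparison: FANCF, PALB2, RAD51D, XRCC3, ERCC2, XPA, PMS2 and REV1. Of these, RAD51D, XPA and REV1 passed in at least 1 comparison under library totals, and XRCC3 with GNA in shNRF2 on leaving out either shNRF2 GNA 3 or shNRF2 DMSO 3 (edgeR adjusted p between 0.034 and 0.035).

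The response to GNA itself differed between the lines for 6 of the 39 genes. The response in shNRF2 minus that in shNC was below 0 for 5, against 3.24% of all tested genes, and above 0 for 1, against 3.58%. FANCI, FANCD2, BRCA1, XRCC2 and POLQ fell further in shNRF2, and ERCC3 fell in shNC alone. The differences were -0.57 ± 0.14 for POLQ (edgeR adjusted p = 0.01), -0.46 ± 0.14 for XRCC2 (edgeR adjusted p = 0.039), -0.33 ± 0.098 for BRCA1 (edgeR adjusted p = 0.041) and 0.31 ± 0.090 for ERCC3 (edgeR adjusted p = 0.032). For the 5 genes that fell further, the levels of the lines were close in GNA, with shNRF2 minus shNC at -0.062, 0.17, 0.031, -0.038 and -0.055 for FANCI, FANCD2, BRCA1, XRCC2 and POLQ.

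The POLQ difference passed with every single library left out and under every alternative except limma on log2(FPKM + 0.1) (limma adjusted p = 0.051). The others depended on single libraries. That of XRCC2 was lost on leaving out any 1 of shNRF2 GNA 1 and 2, shNRF2 DMSO 1, 2 and 3, shNC GNA 1 and 2 and shNC DMSO 2 and 3 (adjusted p between 0.055 and 0.14). That of BRCA1 was lost on leaving out any 1 of shNRF2 GNA 2 and 3, shNRF2 DMSO 2 and 3, shNC GNA 2 and shNC DMSO 1, 2 and 3 (adjusted p between 0.053 and 0.15) and with the replicate block (edgeR adjusted p = 0.062). That of ERCC3 was lost on leaving out any 1 of shNRF2 GNA 1 and 3, shNRF2 DMSO 2 and 3, shNC GNA 2 and 3 and shNC DMSO 2 and 3 (adjusted p between 0.053 and 0.11). FANCA just missed the threshold at -0.45 ± 0.14 (edgeR adjusted p = 0.054) and passed on leaving out any 1 of shNRF2 DMSO 3 and shNC DMSO 1 (adjusted p between 0.0064 and 0.047). Of all 39 differences 28 were below 0, with a median of -0.17, against -0.0048 over all tested genes. In the S phase list 5 of 32 differences and in the mitosis list 11 of 23 passed below 0, with medians of -0.18 and -0.36.

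By level per length over all 12 libraries, XPA was followed by MSH6 at 12.9 and RPA2 at 12.8 FPKM, then by ERCC3 at 7.86 and RPA1 at 7.07 FPKM, and FANCB was lowest at 0.132 FPKM. MSH6 was above RPA2 in shNRF2 DMSO, at 16.3 ± 0.418 against 13.5 ± 1.40 FPKM, and below it in the means of shNRF2 GNA, shNC GNA and shNC DMSO. The ranks depend on the gene lengths behind the deposited FPKM values. For FANCL that length was 37977 bases, against 2412 in the merged GENCODE 29 exons, and for ERCC8 26458 against 5448, so their FPKM values are low for their counts. For MSH6 it was 17722 against 10993, and for RPA2 1981 against 2019. The order of MSH6 and RPA2 in a group therefore depends on the lengths used.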

How the data were processed

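RNA of 12 libraries, 3 in each of 4 groups, was sequenced. The authors deposited raw counts per gene and FPKM values for 61510 genes; per the submitters' processing notes the build was GRCh38 and DESeq2 was used, with no version given. The sources used here do not name the aligner, the counting tool, its use of strand or the annotation release. Deposited FPKM equalled the count divided by the column total and a fixed length for 100% of 12835 genes checked, within a relative tolerance of 0.001.

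Columns were assigned to groups by sample title. Genes were filtered with filterByExpr (minimum count 10, minimum total 15), which left 15653 genes with 99.8% of the counts. CPM values were computed from the deposited counts on TMM-scaled totals. Counts were tested with edgeR 4.0.16 (functions glmQLFit and glmQLFTest, R 4.3.3), with a coefficient for each group, 8 residual degrees of freedom and Benjamini-Hochberg adjustment within each of 5 comparisons. These set GNA against DMSO within a line, the lines against each other within a treatment, and the GNA response of shNRF2 against that of shNC. The SE is the log2 fold change divided by the square root of F, and 95% intervals use the moderated degrees of freedom. With 3 libraries a side, the smallest p of an exact permutation test is 0.1. The scripts were tested on simulated counts.

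The genes and lists were chosen with earlier results of these data known. Library values were given for called genes with the 3 largest changes in a role group, for genes called in the difference of the responses, and for the most abundant gene per role group; of other lists at most 3 called genes per direction were named. Some genes of those lists are not reported here. Positions and shared exons are from GENCODE 29 on GRCh38. In edgeR, the scaling was replaced by library totals, by upper-quartile factors or by the size factors of DESeq2. The filter was dropped or set to 1 CPM in 3 libraries. DESeq2 1.42.0 and limma 3.58.1, on log2(FPKM + 1) or log2(FPKM + 0.1), took the place of edgeR. A replicate block was added, the fit was restricted to the compared groups, and the 12 libraries were left out 1 at a time.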

Additional observations from a re-analysis of the deposited data

Results flagged for a closer look

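The GNA response differed between the lines, by a test of the difference itself in edgeR, for 6 of the 39 genes. Over all tested genes, 3.24% had a difference called below 0 and 3.58% above 0. Only the FANCI call held under all 21 alternatives. POLQ lost its call under 1, and FANCD2, XRCC2, BRCA1 and ERCC3 each under 11 or 12. The response in shNRF2 minus that in shNC was -0.63 for FANCI, -0.57 for POLQ, -0.53 for FANCD2, -0.46 for XRCC2 and -0.33 for BRCA1 on the log2 scale, and 0.31 for ERCC3. For the first 5, the level in GNA was close in the lines and that in DMSO was higher in shNRF2. Cell cycle genes moved with them, as 11 of 23 mitosis genes and 5 of 32 S phase genes also had a difference below 0; their part in the result was not tested. The values of single genes were not searched for a library far from its group, since each group holds 3 libraries.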

How the results depend on the processing

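No called value changed sign under any alternative. Calls kept under all alternatives and omissions were 18 of 21 for GNA in shNRF2, 15 of 21 for GNA in shNC, 13 of 22 between the lines in DMSO, 2 of 7 between the lines in GNA (SLX4 and ERCC1) and 1 of 6 for the difference of the responses (FANCI). Under library totals the genes higher with GNA were 4 in shNRF2 and 8 in shNC, against 2 and 2, and limma on log2(FPKM + 1) gave 4 and 4. Without 1 library those counts ran from 1 to 2 in each line, and the counts of lower genes from 18 to 20 in shNRF2 and from 16 to 19 in shNC. Between the lines in DMSO the 1 lower gene became 0 under upper-quartile factors, library totals, no filter, DESeq2, either limma fit, the replicate block and only the groups compared, and 0 to 3 without 1 library; the higher genes were 23 under library totals and 16 to 21 without 1 library. Between the lines in GNA, DESeq2 called 3 higher, against 7, and 2 to 8 were called without 1 library, with 0 lower throughout. For the difference of the responses, the 1 gene above 0 became 0 under library totals, no filter and either limma fit, and 0 to 1 without 1 library. The 5 below 0 became 7 under library totals, 2 under limma on log2(FPKM + 1), 1 under limma on log2(FPKM + 0.1), 3 with the replicate block and 2 to 5 without 1 library.

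Replicate numbers gave no sign of pairing. Deviations from the group means correlated at -0.082 to 0.051 in the 18 pairs that share a number, so 0 exceeded 0.1, and 3 of 12 libraries had their best match under their own number. Genes near 1 CPM such as FANCB and RAD54L rest on few counts.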
